A study of Mus musculus with 72 samples.

Results

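The comparison described here asks what the M28L variant of Plcg2 was accompanied by in the cortex of female amyloid mice. It took the 6 female mice that carried 5xFAD with the M28L variant and set them against the 6 female mice that carried 5xFAD alone, which makes 12 of the 36 mice of the series. The members were set by genotype and sex in the sample labels and not by a measured value. Earlier results of these data were known when this comparison and the gene lists were chosen. All 36 mice were 7.5 months old and all carried the 5xFAD transgenes, human amyloid precursor protein and presenilin genes with familial Alzheimer's disease mutations under the neuron-directed Thy1 promoter. No mouse without these transgenes was used, so every difference below is between mice with amyloid disease. The other mice were M28L males, 5xFAD males and females and males with the P522R variant, 6 of each. Whether the M28L allele was carried on 1 or both chromosomes is not given in the labels. A pair of M28L females shares the animal number 14 and differs in its index number, F1 and F8. Between this pair the counts gave a chi-square per gene of 7.81, where other pairs of M28L females gave 3.79 to 77.88, and both mice were kept.

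Phospholipase C gamma 2, the product of Plcg2, is a signalling enzyme that in the brain is made mainly by microglia. It acts below surface receptors such as TREM2, through the adaptor TYROBP and the kinase SYK, and splits a membrane lipid into messengers that release calcium and activate protein kinase C. Microglia that contact amyloid plaques raise a known set of genes for phagocytosis, lipid handling and lysosomes, and part of that response depends on TREM2. Human carriers of M28L have been reported to have a raised risk of Alzheimer's disease, and carriers of P522R a lowered one.

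RNA was measured on NanoString nCounter panels, which count a fluorescent barcode for each transcript without amplification. The deposited table gives 1 log2 level per gene and mouse, so a difference of 1 is a doubling, and levels are comparable for a gene between mice but not between genes. It named 1266 genes, 757 on a larger and 509 on a smaller panel. In the 12 females the counts recovered from the levels summed to 921565 to 1239109 on the larger and to 237563 to 338173 on the smaller panel. The log2 of the summed levels of neuron markers (5 of 6 measured) ran from 15.10 to 15.45 in M28L and from 15.19 to 15.48 in 5xFAD females. The neuron markers of the labelled cortex were thus present at like levels. Markers of T, B and NK cells were near the detection limit, with Cd3d and Cd8a each at 1 count or less in 3 of the 12 mice. No marker of choroid plexus or meninges was on the panels. The Plcg2 transcript was not analysed here.

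In M28L females, the largest falls included genes of plaque-associated microglia, such as Gpnmb, Itgax and Ccl3, beside genes outside that list, such as Il4, Ptprc, Olfr110 and Cd14. The genes that rose were of mixed function and mostly changed by less. Of the 1266 genes tested, 49 differed from 5xFAD females at an adjusted p of 0.05 (3.87% of all genes), 25 lower (1.97%) and 24 higher (1.9%). At an unadjusted p under 0.05 there were 250. The falls reached 3.15-fold, and the rises reached 2.51-fold in Tnfrsf10b, which averaged only 5.5 counts. Among genes that averaged at least 20 counts the largest rise was 1.65-fold, in Ptgis. The levels of 18 genes were lower in each M28L female than in every 5xFAD female (1.42% of all genes), and 9 were higher in the same way (0.711%). The 2 panels did not share the calls evenly: 23 of the 25 falls were on the larger panel, and 16 of the 24 rises were on the smaller panel. Over all genes of a panel the median difference was -0.02 on the larger and 0.07 on the smaller panel.

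Among the 34 measured genes of the disease-associated microglia list, 14 fell and none rose, and 30 of the 34 differences were below 0. The median difference over the list was -0.44, against 0.01 over all 1266 genes. As a mean over the list of each gene's distance from its 5xFAD average, the M28L females stood at -0.69 to -0.37 and the 5xFAD females at -0.17 to 0.15. The groups did not overlap on this score. For 9 of the 34 genes they did not overlap gene by gene either. A gap between the groups was not particular to this list. Antigen presentation scores were -0.52 to -0.21 in M28L and -0.19 to 0.22 in 5xFAD females. Complement and Fc receptor scores were -0.38 to -0.15 and -0.12 to 0.22, and lysosome and endosome scores -0.24 to -0.11 and -0.08 to 0.14. On the other lists the groups overlapped.

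**Figure D1:**
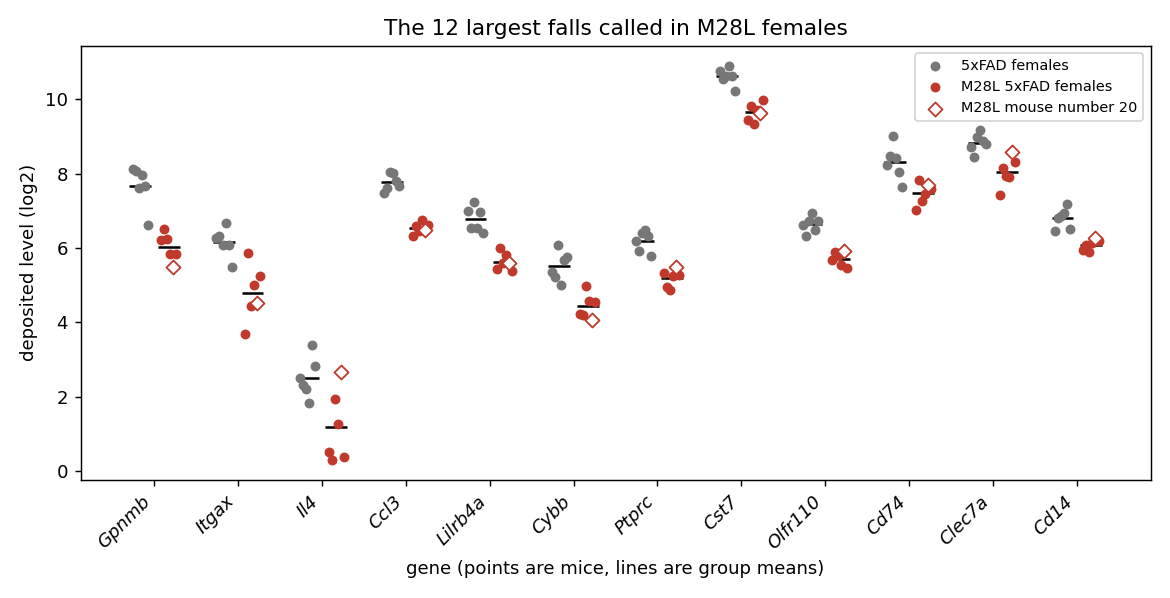
Deposited log2 level of the 12 genes with the largest called falls, 1 point per mouse, with 5xFAD females in grey, M28L females in red, mouse number 20 as an open diamond and group means as black lines. For Gpnmb, Ccl3, Lilrb4a, Cybb, Ptprc, Cst7, Olfr110 and Cd14 every red point lies below every grey point.

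Gpnmb, a membrane glycoprotein that phagocytic and lipid-loaded myeloid cells raise, had the largest fall. Its level was 6.63 to 8.12 (median 7.81) in 5xFAD females and 5.49 to 6.51 (median 6.03) in M28L females, a difference of -1.66 ± 0.27 (SE, 6 mice against 6) with an adjusted p = 0.000233 by limma. The groups did not overlap, although 1 low 5xFAD mouse came close to the highest M28L mouse. Itgax, which encodes the integrin CD11c of plaque-associated microglia, was at 5.49 to 6.67 (median 6.18) in 5xFAD and 3.69 to 5.86 (median 4.77) in M28L females. It differed by -1.36 ± 0.31 (adjusted p = 0.00969), and 5 of 6 M28L mice were below all 5xFAD mice. Cst7 encodes cystatin F, an inhibitor of lysosomal cysteine proteases. Its level was 10.23 to 10.91 (median 10.62) in 5xFAD and 9.32 to 9.98 (median 9.67) in M28L females, a difference of -0.96 ± 0.24 (adjusted p = 0.017) without overlap. Lpl, the lipoprotein lipase, fell by 0.63 ± 0.12 (adjusted p = 0.00109), from 7.65 to 8.12 in 5xFAD to 7.06 to 7.49 in M28L females, again without overlap.

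Some receptors and secreted factors fell as well, while Trem2 and Apoe of the same list did not pass the test. Ccl3, a chemokine, had levels of 7.47 to 8.05 (median 7.73) in 5xFAD and 6.33 to 6.75 (median 6.54) in M28L females. Its difference of -1.22 ± 0.18 had the smallest adjusted p of the comparison, 0.000105 and the groups lay well apart. Lilrb4a, an inhibitory immunoglobulin-like receptor of myeloid cells, was at 6.41 to 7.24 (median 6.75) against 5.38 to 6.0 (median 5.60) and differed by -1.14 ± 0.19 (adjusted p = 0.00025). Clec7a, which encodes the beta-glucan receptor Dectin-1 that signals through SYK, was at 8.46 to 9.2 (median 8.85) against 7.42 to 8.59 (median 8.06). It fell by 0.78 ± 0.23 (adjusted p = 0.0438), and 1 M28L mouse lay within the 5xFAD range. Csf1, a growth factor for microglia, fell by 0.52 ± 0.11 (adjusted p = 0.00731) without overlap. The innate sensor Tlr2 fell by 0.65 ± 0.14 (adjusted p = 0.00731), and its co-receptor Cd14, which is not on the disease-associated list, by 0.71 ± 0.18 (adjusted p = 0.0199). Lgals3, which encodes the glycan-binding galectin-3, fell by 0.64 ± 0.19 (adjusted p = 0.0472), and 5 of 6 M28L mice were below all 5xFAD mice.

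Cybb, the catalytic subunit of the phagocyte NADPH oxidase, fell by 1.08 ± 0.20 (adjusted p = 0.00125), with levels of 5.00 to 6.09 in 5xFAD and 4.06 to 4.99 in M28L females. Ptprc, the pan-leukocyte antigen CD45, fell by 0.99 ± 0.22 (adjusted p = 0.00926), from 5.79 to 6.47 down to 4.87 to 5.49. Both were thus lower in all 6 M28L females than in any 5xFAD female. Of the 8 measured genes of antigen presentation, 2 fell and the list median was -0.35. Cd74, the class II invariant chain, had levels of 7.66 to 9.03 against 7.01 to 7.83 and fell by 0.82 ± 0.25 (adjusted p = 0.0485). H2-T23, a non-classical class I molecule, fell by 0.33 ± 0.09 (adjusted p = 0.0273). Of 29 measured genes of lysosomes and endosomes, 4 fell, with a list median of -0.15. Besides Cst7 these were Ctsd, the protease cathepsin D (-0.51 ± 0.14, adjusted p = 0.0301), Cd68, a lysosomal membrane protein of phagocytes (-0.54 ± 0.16, adjusted p = 0.0424), and Gusb, the enzyme beta-glucuronidase (-0.57 ± 0.13, adjusted p = 0.00969). None of these 3 genes had overlapping groups.

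The letters TGANTCA, the site type of the AP-1 transcription factors, were looked for in RefSeq promoter windows (assembly GRCm38.p6) that span 250 bases before to 50 after each gene's start. Windows were matched by symbol for 20 of the 25 genes that fell and 16 of the 24 that rose. The motif reads the same on both strands, and it was held by 5 of the 20 (Cd68, Cst7, Cybb, Gpnmb and Itgax), by 2 of the 16, by 8.83% of the 951 measured genes with a window and by 8.97% of all 27025 genes. The 250 bases before the start are shown for the 3 fallen genes of this group with a match further from the start than Cst7, whose match begins 6 bases before it, and Gpnmb, whose match begins 9 bases into the gene. They run 5′ to 3′ on the gene's strand with the match in capitals, for Itgax at chr7:128129300-128129549 (plus strand), Cybb at chrX:9469325-9469574 (minus strand) and Cd68 at chr11:69666171-69666420 (minus strand).
Itgax: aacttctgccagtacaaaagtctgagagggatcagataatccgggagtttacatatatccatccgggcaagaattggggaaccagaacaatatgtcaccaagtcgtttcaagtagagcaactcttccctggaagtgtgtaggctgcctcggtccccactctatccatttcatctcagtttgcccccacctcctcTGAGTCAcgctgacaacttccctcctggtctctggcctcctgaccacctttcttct
Cybb: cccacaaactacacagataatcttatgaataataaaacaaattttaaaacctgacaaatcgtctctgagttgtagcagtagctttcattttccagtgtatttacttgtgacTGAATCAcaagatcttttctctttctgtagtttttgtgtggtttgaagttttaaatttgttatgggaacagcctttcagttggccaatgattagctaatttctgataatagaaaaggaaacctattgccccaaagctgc
Cd68: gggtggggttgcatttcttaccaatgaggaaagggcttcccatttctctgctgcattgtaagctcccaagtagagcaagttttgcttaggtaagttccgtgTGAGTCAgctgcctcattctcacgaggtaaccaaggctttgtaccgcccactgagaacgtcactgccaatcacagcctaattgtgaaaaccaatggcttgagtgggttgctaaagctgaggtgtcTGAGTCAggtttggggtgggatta
The match began 56 bases before the start in Itgax, 139 in Cybb, and 149 and 24 in Cd68. It was 1 of 10 motifs searched, all chosen after the values were seen, and a match is a description of letters. The ETS-type core GAGGAA was in 9 of the 20 falls, 4 of the 16 rises and 31.3% of all genes. The PU.1-type GAGGAAGT (1 of 20 and 1 of 16, against 3.69% of all) overlaps it, as does a longer PU.1-type form (1 of 20 and 0 of 16, against 0.318%). The cyclic AMP site TGACGTCA was in 1 of 20 and 0 of 16 (2.03% of all), the ATF4-type TGATGNAA in 0 and 2 (4.51%), and an NF-kB-type site in 0 and 1, which was Nfkbia (0.396%). The E-box CACGTG was in 1 of 20 and 3 of 16 (8.09%), and the longer TCACGTGA (1 and 1, against 1.1%) and a form of it extended by a base on each side (0 and 1, against 0.37%) contain it. Among the 951 measured genes with a window, GAGGAA was in 33%, GAGGAAGT in 3.36% and the longer PU.1-type form in 0.21%. TGACGTCA was in 4% of them, TGATGNAA in 3.05%, the NF-kB-type site in 0.736%, CACGTG in 11.3%, TCACGTGA in 2.1% and its extended form in 0.526%.

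The differences of Trem2 and Tyrobp did not pass the test on the deposited values. The receptor Trem2 was at 8.79 to 9.70 (median 9.34) in 5xFAD and 8.44 to 9.06 (median 8.99) in M28L females, a difference of -0.43 ± 0.18 (adjusted p = 0.158), and 2 of 6 M28L mice were below all 5xFAD mice. Its adaptor Tyrobp was at 10.97 to 11.58 (median 11.31) against 10.56 to 11.31 (median 10.77), a difference of -0.46 ± 0.16 (adjusted p = 0.115), with 4 of 6 below all 5xFAD mice. Mouse number 20 was the highest M28L mouse for Tyrobp, at 11.31. The difference was -0.48 with each mouse centred on its median (adjusted p = 0.0615), -0.55 without mouse 20 (0.0577) and -0.57 with both (0.025), so Tyrobp was called only with both among these choices. Trem2 did not pass under any of these choices (adjusted p = 0.0964 to 0.205). Of the 31 measured genes of the list around TREM2 and phospholipase C, 1 fell (Clec7a) and none rose, and the list median was -0.04. Apoe, the lipid carrier whose human alleles set Alzheimer's risk, was at 12.05 to 13.04 in 5xFAD and 12.44 to 12.88 in M28L females, a difference of 0.00 ± 0.11 (adjusted p = 0.986). Lpl was the only gene of 17 in the lipid-handling list that passed. App levels differed by -0.15 ± 0.09 (adjusted p = 0.371), and the sources used here do not give whether the probe also reads the human transgene. No gene of the 11 measured for amyloid precursor processing passed. Among 16 complement and Fc receptor genes, 1 fell, Itgax as a complement receptor subunit. The complement receptor C3ar1 (-0.51 ± 0.16, adjusted p = 0.0619) and the Fc receptors Fcgr1 (-0.34 ± 0.12, adjusted p = 0.11) and Fcgr4 (-0.95 ± 0.32, adjusted p = 0.0799, mean of 18.4 counts) did not pass.

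Markers of microglia as a whole had differences in both directions. The log2 of the summed levels of 4 of them was 10.62 to 11.14 in M28L and 10.98 to 11.53 in 5xFAD females. The groups thus overlapped, and none of the 4 passed the test. Tmem119 averaged the fewest counts of the 4 (45.7) and adds little to this sum. Cx3cr1, the fractalkine receptor, differed by -0.43 (adjusted p = 0.0796) and the growth factor receptor Csf1r by -0.31 (0.225). P2ry12, a purine receptor of resting microglia, differed by -0.05 (0.867), and Tmem119 by 0.41 (0.13). In bulk cortex, fewer cells of a type and less RNA per cell cannot be told apart, and the part of microglial abundance in the falls above was not tested. Over the 29 measured homeostatic microglia genes, 2 fell, 1 rose and the median was -0.18. The falls were Ptprc and Spi1, the myeloid transcription factor PU.1 (-0.38 ± 0.11, adjusted p = 0.0424), and the rise was Bhlhe41. The log2 of the summed levels of 3 vessel markers was 8.22 to 8.55 in M28L and 8.54 to 9.20 in 5xFAD females. Of these Cldn5, which averaged the most counts, passed the test, while Pecam1 (-0.13, adjusted p = 0.627) and Pdgfrb (-0.16, adjusted p = 0.746) did not. Of the endothelial list 2 of 17 genes fell, the tight-junction gene Cldn5 by 0.54 ± 0.12 and the surface sialomucin Cd34 by 0.32 ± 0.07 (adjusted p = 0.00969 for both), while the list median was 0.04.

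**Figure D2:**
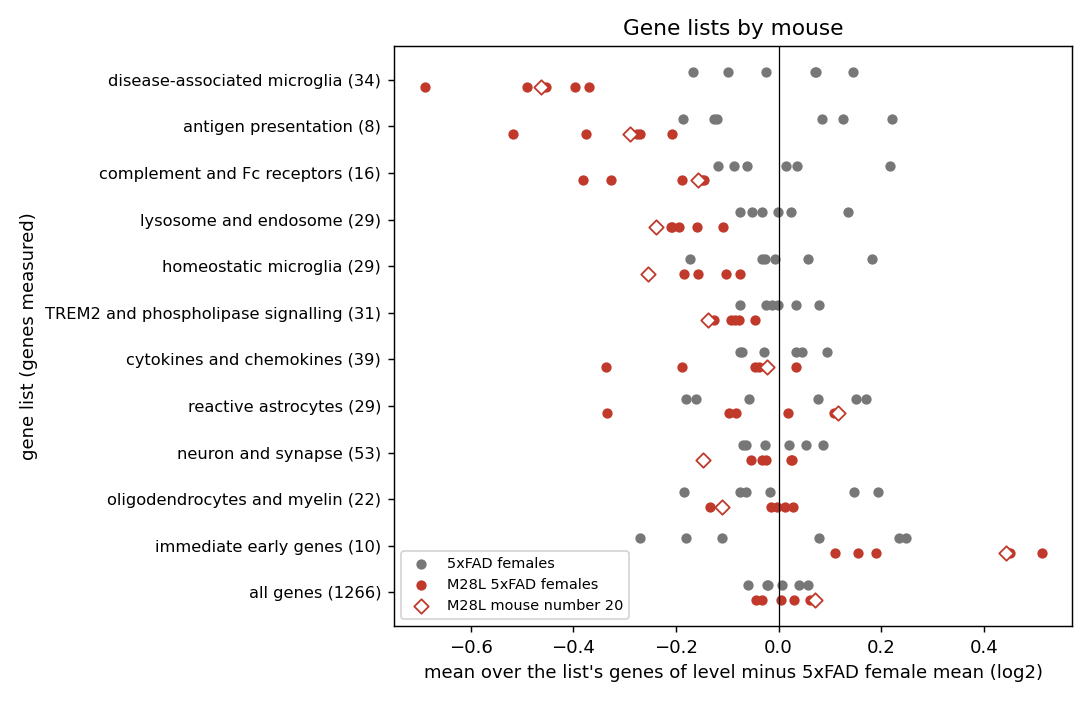
Each point is 1 mouse, placed on the horizontal axis by the mean over a list's measured genes of the level minus the 5xFAD female mean (log2), with 5xFAD females in grey, M28L females in red and mouse number 20 as an open diamond. In the top line the M28L females lie at -0.69 to -0.37 and the 5xFAD females at -0.17 to 0.15, while the points for all genes lie between -0.06 and 0.07.

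The falls also included genes outside microglial lists. Olfr110, an olfactory receptor gene, had levels of 6.33 to 6.95 (median 6.68) in 5xFAD and 5.47 to 5.91 (median 5.73) in M28L females. Its difference of -0.93 ± 0.17 (adjusted p = 0.000733) was among the 4 smallest adjusted p of the comparison. Tgfbr2, a subunit of the receptor for transforming growth factor beta, fell by 0.47 ± 0.12 (adjusted p = 0.0199), and Chrm3, a muscarinic acetylcholine receptor, by 0.28 ± 0.08 (adjusted p = 0.0424). Il4 fell by 1.33 ± 0.38 (adjusted p = 0.0401), yet it averaged only 3.5 counts, and a difference at that depth rests on a few barcodes per mouse. Of the 39 measured cytokine, chemokine and receptor genes, 4 fell (Ccl3, Csf1, Il4 and Tgfbr2), none rose, and the list median was -0.12.

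The rises were of smaller size, and the 3 largest were in genes close to the detection limit. Tnfrsf10b, a death receptor for the ligand TRAIL, averaged 5.5 counts and ranged from 0.39 to 2.91 in 5xFAD and from 3.0 to 4.68 in M28L females. It rose by 1.33 ± 0.33 (adjusted p = 0.0191) without overlap. Cxcl11, an interferon-induced chemokine, also averaged 5.5 counts and rose by 1.19 ± 0.30 (adjusted p = 0.0198). Klrk1, the NKG2D receptor of natural killer and T cells, averaged 3.8 counts and rose by 0.97 ± 0.28 (adjusted p = 0.0424), and 3 of 6 M28L mice were above all 5xFAD mice. Values from so few counts have no firm fold change.

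**Figure D3:**
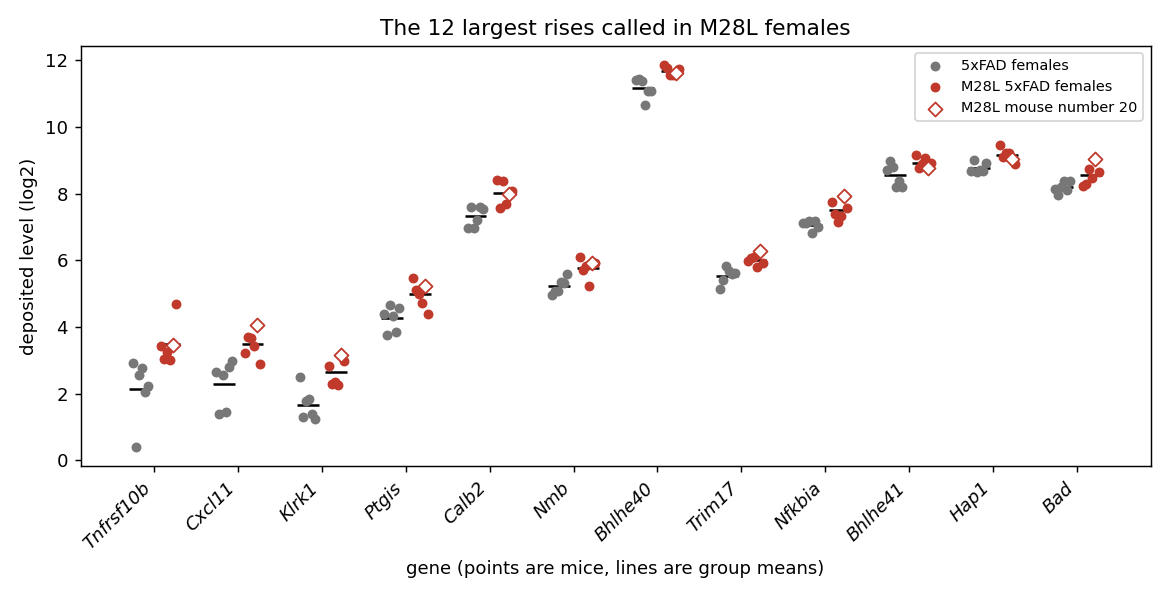
Deposited log2 level of the 12 genes with the largest called rises, drawn as for the falls. For Tnfrsf10b and Bhlhe40 every red point lies above every grey point, and for the other 10 genes the groups overlap.

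Other rises had more counts behind them. Calb2, which encodes the calcium-binding protein calretinin of a class of interneurons, was at 6.97 to 7.61 (median 7.38) in 5xFAD and 7.57 to 8.42 (median 8.03) in M28L females, a rise of 0.69 ± 0.16 (adjusted p = 0.00969), with 5 of 6 M28L mice above all 5xFAD mice. It was the only gene of 18 in the interneuron list to pass. The GABA transporter Slc32a1 stood 0.24 ± 0.08 higher without passing (adjusted p = 0.0713). Bhlhe40 and Bhlhe41 encode related transcriptional repressors that work in the circadian clock and in macrophages. Bhlhe40 was at 10.66 to 11.45 (median 11.23) against 11.56 to 11.86 (median 11.68) and rose by 0.51 ± 0.12 (adjusted p = 0.00969), with no overlap. Bhlhe41 rose by 0.38 ± 0.11 (adjusted p = 0.0424), and only 2 of 6 M28L mice were above all 5xFAD mice. Hap1, a neuronal partner of huntingtin, rose by 0.38 ± 0.08 (adjusted p = 0.00526), and Ptgis, the prostacyclin synthase, by 0.72 ± 0.20 (adjusted p = 0.0401, mean of 20.6 counts).

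Of 10 immediate early genes, transcribed in neurons soon after they fire, 9 had differences above 0 and the list median was 0.27. On the deposited values only the nuclear receptor gene Nr4a2 passed, with a rise of 0.34 ± 0.09 (adjusted p = 0.0199). Arc, a synaptic protein gene, had a difference of 0.67 ± 0.25 (adjusted p = 0.122), and Egr1, a zinc-finger factor, of 0.44 ± 0.15 (adjusted p = 0.0828). Egr1 passed without mouse number 20 (0.0495) and with each panel centred on its median (0.0454), where Nr4a2 did not pass (0.124). With only the 12 females in the fit, 3 genes of the list passed: Nr4a2, Egr1 and Arc. Other genes that rose were Atf4, a factor of the integrated stress response (0.27 ± 0.08, adjusted p = 0.0424), Asns, the asparagine synthetase that Atf4 is known to induce (0.20 ± 0.05, adjusted p = 0.0328), and Bad, which promotes apoptosis (0.37 ± 0.10, adjusted p = 0.0394). With each of the 12 females left out in turn, Atf4 was still called in 3 of the 12 fits, Asns in 7 and Bad in 5. Nfkbia, the inhibitor of NF-kB that NF-kB itself induces, rose by 0.45 ± 0.13 (adjusted p = 0.0424), while Tlr2 and Cd14 of the same innate-sensing list fell. Of 24 genes of cell death and cell cycle arrest 2 rose, Tnfrsf10b and Bad.

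The remaining rises ran from 0.22 to 0.55. They were the neuropeptide gene Nmb, the ubiquitin ligase gene Trim17, the metalloproteinase gene Mmp24, the general transcription factor gene Taf4, the lysophosphatidic acid receptor gene Lpar1, the apoptotic chromatin gene Acin1, Cables1, the neuronal GTPase gene Rit2, the argininosuccinate synthase gene Ass1, the glutathione transferase gene Gstp1 and the glucosidase subunit gene Prkcsh. Groups did not overlap for Mmp24, Taf4, Ass1 and Gstp1 among these. No gene passed among the 53 of neurons and synapses (median -0.04), the 8 of resting astrocytes (median -0.03) or the 7 of the interferon response (median 0.11). In the reactive astrocyte list Cd14 alone of 29 passed, and Serpina3n, a protease inhibitor of such astrocytes, differed by -0.75 ± 0.23 (adjusted p = 0.0612). Lpar1 was the only gene of 22 of oligodendrocytes and myelin that passed. Among 25 lymphocyte genes, 22 of which averaged under 20 counts, Klrk1 alone passed, and no gene of 10 for infiltrating myeloid cells or of 4 for oligodendrocyte precursors did.

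Centring each mouse on its own median over all genes lowered every difference by the same small amount, as for Gpnmb from -1.66 to -1.68. It turned no called difference, although values near 0 changed sign, such as that of Apoe from 0.00 to -0.02 (adjusted p = 0.939 after centring). It changed which genes passed. The medians before centring ran from 8.72 to 8.84 in 5xFAD and from 8.78 to 8.85 in M28L females, so centring took the median difference of all genes from 0.012 to -0.008. After it 51 genes were called (4.03% of all), of which 34 were lower (2.69%) and 17 higher (1.34%). All 25 falls were kept, and 9 more were called, among them C3ar1 (adjusted p = 0.041), Serpina3n (0.0389), the glutamate receptor gene Gria3 (0.0469), Adamts1 (0.0232) and Plxdc2 (0.0215). None of the 17 rises was new, and 7 of the 24 were lost: Nmb, Nfkbia, Bhlhe41, Cables1, Asns, Prkcsh and Rit2, with adjusted p from 0.052 to 0.0615 after centring. The share of rises among called genes thus went from 49.0% to 33.3%. Gpnmb then had an adjusted p = 9.44e-05, and the disease-associated list, with 15 falls of 34, stood at a median of -0.46. Centring each panel on its own median kept 19 falls and 11 rises and called 50 genes in all, 26 lower and 24 higher. Under it the falls of Cd74 (adjusted p = 0.0525), Clec7a (0.0516), Chrm3, Il4, Lgals3 and Spi1 were no longer called. The rises lost were Hap1 (0.0669), Nr4a2 (0.124), Nfkbia (0.105), Bad (0.0995), Atf4 (0.239), Acin1, Gstp1, Lpar1, Mmp24, Nmb, Prkcsh, Rit2 and Taf4. All of these lost rises were on the smaller panel, and every rise on the larger panel was kept.

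**Figure D4:**
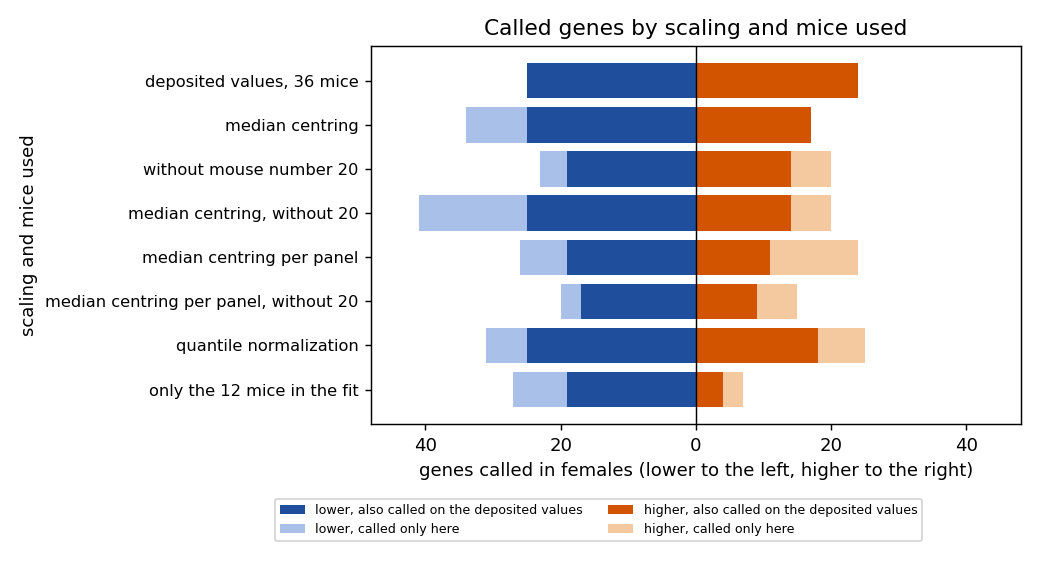
Number of genes called in females under 8 choices of scaling and mice, lower to the left in blue and higher to the right in orange, with pale bars for genes not called on the deposited values. The deposited values gave 25 lower and 24 higher genes, and median centring without mouse number 20 gave 41 lower and 20 higher.

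Mouse number 20 stood apart from the other M28L females. On the first principal component of the 12 females, which held 35.8% of the variance over 1091 genes, it lay at 11.62 and the other mice between -4.78 and 4.61. Its level differed by more than 1.5-fold from the mean of the other 5 M28L females in 131 of those genes, against 11 to 71 for the other M28L females and 6 to 49 for the 5xFAD females. Its counts summed to 1436209, within the range of the other females. The 10 genes furthest above and the 10 furthest below the other M28L females held no called gene, where 3.87% of all genes were called. This count shows nothing about the calls, as genes picked for a wide spread within a group are unlikely to pass. The genes furthest above were led by Polr2k, an RNA polymerase subunit gene (10.98, against 9.39 to 10.16 in the others), Txnl1 (9.28, against 7.80 to 8.56) and the sorting adaptor gene Ap3s1 (11.39, against 9.96 to 10.61). Slc11a1, a metal transporter gene of phagocytes, was furthest below (2.88, against 3.68 to 5.22), and Csf1r was at 9.2 against 9.69 to 10.37. On the disease-associated microglia score it stood at -0.46, within the -0.69 to -0.37 of the others, and on the neuron and synapse score at -0.15, below the -0.05 to 0.03 of the others. It was also below them for TREM2 and phospholipase signalling, lysosome and endosome, astrocyte markers, oligodendrocyte precursors and infiltrating myeloid cells. It was above them for lipid handling, reactive astrocytes, endothelium and pericytes, and cell death (0.38, against -0.09 to 0.14). Among the 25 falls, mouse 20 was the lowest M28L mouse in 9 and the highest in 6. Among the 24 rises it was the highest in 9 and the lowest in 5.

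Without mouse number 20, 43 genes were called (3.4% of all), 23 lower (1.82%) and 20 higher (1.58%). Of the genes called with it, 19 falls and 14 rises were kept, and 4 falls and 6 rises were new. The 6 falls lost were Cd68 (adjusted p = 0.108), Cd74 (0.0538), Chrm3 (0.0976), Ctsd (0.0683), Lgals3 (0.0761) and Tgfbr2 (0.0503). The 10 rises lost were Klrk1, Ptgis, Trim17, Bad, Gstp1, Taf4, Nmb, Nfkbia, Atf4 and Rit2. The largest falls held: Gpnmb differed by -1.55 (adjusted p = 0.000915), Ccl3 by -1.21 (0.000436) and Itgax by -1.31 (0.0219). The disease-associated list then had 11 falls of 34, Ctsl being called in addition, and a median of -0.44. With median centring as well, 61 genes were called, 41 lower and 20 higher, and the list had 17 falls. All 25 falls called on the deposited values were called then, Cd68, Cd74, Chrm3, Ctsd, Lgals3 and Tgfbr2 included.

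Other choices of mice moved the count further. With only the 12 females in the fit, and so with their own spread alone, 34 genes were called (2.69% of all), 27 lower and 7 higher, of which 19 falls and 4 rises were shared with the fit over all 36 mice. The 4 rises were Calb2, Bhlhe40, Hap1 and Nr4a2. Leaving out 5xFAD mouse 1248 gave 29 called genes and leaving out 5xFAD mouse 1249 gave 31, and neither Tnfrsf10b nor Cxcl11 was called without 5xFAD mouse 1189. The M28L females carry index numbers 1 to 3 and 7 to 9, and the 5xFAD females 1 to 6. The labels do not say whether these numbers mark a batch. The M28L mice of index 1 to 3, mouse number 20 among them, gave 91 called genes, and those of index 7 to 9 gave 21. Of the 25 falls 14 were called in the former and 9 in the latter. Gpnmb, Ccl3, Lilrb4a, Lpl and Olfr110 were called under each of the 12 single mice left out and each of the 15 other choices run, and no rise was. With single mice left out alone, 14 of the 25 falls and 4 of the 24 rises were called each time. The least stable calls were Cd74 and Nmb, kept in 2 of these 12 fits. Atf4, Chrm3, Clec7a, Lgals3, Nfkbia, Prkcsh and Taf4 were kept in 3.

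The same contrast in males, which uses other mice, called 26 genes (2.05% of all), 15 lower and 11 higher. Of the 25 genes that fell in females 24 were below 0 in males and 12 were called lower there. Ccl3 differed by -1.30 ± 0.18 in males (adjusted p = 2.85e-05), Itgax by -1.43 ± 0.31 (0.00696), Cst7 by -0.98 ± 0.24 (0.0158), Olfr110 by -0.97 ± 0.17 (0.000421) and Gpnmb by -1.05 ± 0.27 (0.0246). For Cd74 the male difference of -1.55 ± 0.25 was larger than the female one. Of the 24 genes that rose in females 21 were above 0 in males, and 4 were called higher there: Bhlhe40, Nfkbia, Cables1 and Acin1. Over all genes 66.4% had the same sign in both sexes.

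**Figure D5:**
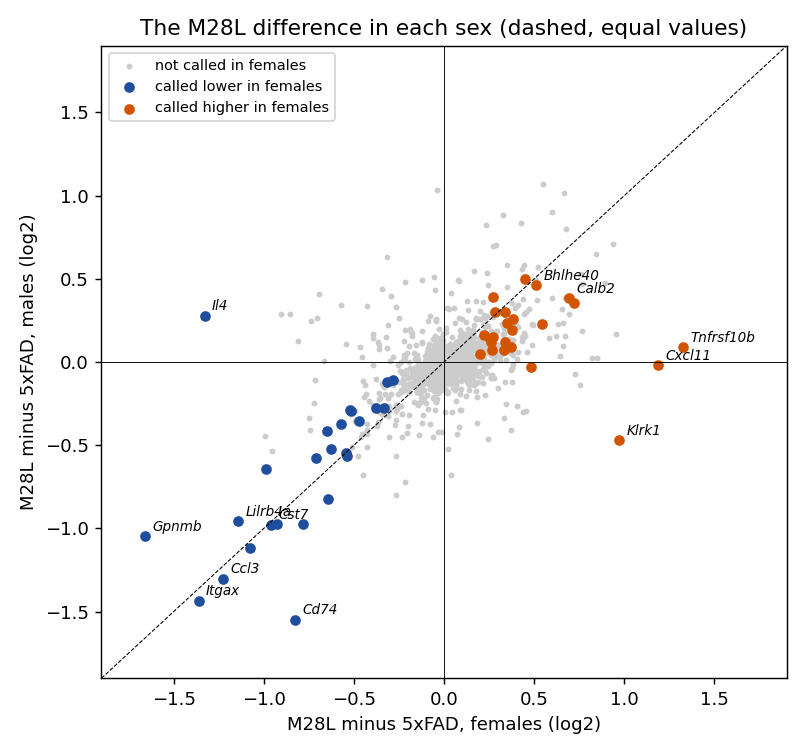
M28L minus 5xFAD difference (log2) of each of the 1266 genes in females (horizontal) and males (vertical), with genes called lower in females in blue, called higher in orange, all others in grey and a dashed line of equal values. Of the 25 blue points 24 lie below 0 on the male axis, with Il4 the exception, and of the 24 orange points 21 lie above 0.

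The difference between the sexes was tested as an interaction, and no gene passed in limma (0% of all genes, 34 at an unadjusted p under 0.05). The smallest p belonged to Klrk1, which differed by 0.97 in females and -0.47 in males (interaction 1.44 ± 0.40, adjusted p = 1). It was followed by the leukotriene receptor gene Cysltr1 (-0.31 and 0.63), Il4 (-1.33 and 0.28), the death receptor gene Fas (-0.70 and 0.41) and Trim17 (0.48 and -0.03). Klrk1, Cysltr1, Il4 and Fas averaged 3.8, 16.0, 3.5 and 12.4 counts in the females. The interaction of Cd74 was 0.73 ± 0.35 and that of Gpnmb -0.61 ± 0.38, with an adjusted p of 1 for both. None of the female differences above is therefore shown to be particular to females.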

How the data were processed

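Cortical RNA of 36 mice was counted on the nCounter Glial Profiling and Neuropathology panels, which makes 72 records. The values are on a log2 scale as the authors deposited them, with the genes of both panels in a column for each mouse, and their normalization was not given in the sources read. Of 1517 lines, 251 named no gene and were left out. When taken out of log2, 100% of values divided into whole numbers (tolerance 0.05 counts) by either of 2 constants of that mouse. These constants gave the counts used for depth and separated the 2 panels, and which is the Glial panel is not stated in the table. Per-panel scaling multiplies all genes of a panel in a mouse by a constant, so an error in it would shift that whole panel. Of the symbols, 1251 matched the RefSeq table directly, 3 with a hyphen in place of the dot and 6 as synonyms, and 6 did not match.

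Differences were tested on the deposited log2 values with limma 3.58.1 (R 4.3.3), with a mean per genotype and sex, a spread per gene shared by 36 mice and eBayes with a trend. Tests were two-sided, with Benjamini-Hochberg adjustment over 1266 genes and a threshold of 0.05. "Fell" and "rose" refer to genes past it, and errors are standard errors of that fit. Nothing in the labels beyond animal numbers says how mice were sampled, so p-values measure the spread between these mice. The fit was tested on simulated data.

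The members and the 22 gene lists were chosen with earlier results of these data known. Named genes are Trem2, Tyrobp, Apoe and App, the called genes, up to 3 genes of smallest p from each list, up to 10 of smallest p whose call changes under median centring or without mouse 20, and the 5 of smallest interaction p. The promoter motifs and Ctsl, Polr2k, Txnl1, Ap3s1 and Slc11a1 were chosen after values were seen, and the cell type markers come from a separate list. One microglial marker of that list is not reported here and was left out of the summed level. Alternatives were other scalings, a filter, a pseudocount, other variance models, the index number as a block and mice left out.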

Additional observations from a re-analysis of the deposited data

Results flagged for a closer look

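Among the 92 named genes, 11 of 184 groups of 6 mice held a mouse whose gap to the nearest other mouse was above Dixon's 95% critical value as a share of the group's range, and chance does this in about 1 of 20 groups. Mouse number 20 was such a mouse for Gstp1, at 12.21 against 11.83 to 11.95 in the other M28L females, and for Ctsd, at 13.53 against 13.77 to 13.89. Without it neither passed, with differences of 0.20 (adjusted p = 0.0542) for Gstp1 and -0.46 (0.0683) for Ctsd. With each mouse centred on its median as well, both passed, at 0.18 (0.0454) and -0.48 (0.0263). In the M28L mouse numbered 14 with index F8, Lgals3 was at 4.26 against 5.06 to 5.43 and Fcgr4 at 1.94 against 3.72 to 4.63. M28L mouse 28 had Tnfrsf10b at 4.68 against 3.0 to 3.47, and M28L mouse 12 had Gria3 at 12.51 against 12.23 to 12.30. Among the 5xFAD females, mouse 1253 had Gpnmb at 6.63 against 7.62 to 8.12 and Ptprz1 at 11.15 against 11.35 to 11.41. Mouse 1189 had Tnfrsf10b at 0.39 against 2.06 to 2.91 and Cxcl10 at 3.72 against 4.90 to 5.53, and mouse 1180 had Chrm3 at 8.38 against 8.69 to 8.78. Low counts stand behind Tnfrsf10b (mean of 5.5) and Fcgr4 (mean of 18.4).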

How the results depend on the processing

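The 49 genes called in females became 29 to 56 when each of the 12 mice was left out in turn. Centring on the measured housekeeping genes, Gusb and Tbp, gave 270 (252 higher, 18 lower) and moved the median of all genes to 0.234, and Gusb itself fell in M28L females. The M28L mice of index 1 to 3 gave 91 and those of index 7 to 9 gave 21. Quantile normalization gave 56, no trend 41, robust eBayes 47, a filter at a mean log2 of 5 gave 46 of 1091 genes, a pseudocount of 20 gave 40, and the pair numbered 14 as their mean 38. With the index number as a replicate block 36 were called. Deviations from the group mean, over the 1091 genes of that filter, correlated between same-numbered mice at -0.176, -0.485 and -0.003 for index 1, 2 and 3. The pair of index 2 holds mouse number 20. So few pairs cannot show whether the numbers mark a shared batch. No named gene's called difference changed sign under any choice. The 26 genes called in males became 95 with only the mice of the comparison and 4 with index 1 to 3. The interaction gave 0 under all scalings and left-out mice shown here. Median centring without mouse 20, pooled or per panel (61 and 35 genes), was added after the data were seen. Of the genes, 176 averaged under 20 counts in the 12 females, and their differences are limited by depth.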
